A study of Mus musculus with 16 samples.

Results

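The genes described here encode the myosin chains of heart muscle: the heavy chains Myh6, Myh7 and Myh7b, the ventricular light chains Myl2 and Myl3, and the atrial light chains Myl4 and Myl7. These 7 genes were chosen by name out of 19505 genes tested, and each was read by a single probe set. Hearts of wild-type male C57BL/6 mice, 10 weeks old, were compared in 4 groups of 4 arrays, with 1 heart per array per the labels: sham surgery, and closure of the left anterior descending artery for 30 min, by ligation, followed by 6, 24 or 72 h of reperfusion. That artery feeds the front wall of the left ventricle. The labels do not say which part of the heart was taken, and they give no hours for the sham group, whose arrays serve as the control of every time. The comparisons with sham therefore share their control arrays. Replicate numbers below are those of the labels.

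A cardiac myosin molecule holds a pair of heavy chains, each with a motor head that pulls on actin, and each head carries an essential and a regulatory light chain on its neck. Myh6 encodes the fast alpha heavy chain that dominates the adult mouse ventricle, and Myh7 encodes the slower, more economical beta heavy chain of the fetal ventricle. A shift from Myh6 towards Myh7 is a widely used sign of cardiac stress in rodents. Myl2 and Myl3 encode the regulatory and the essential light chain of the ventricle, and Myl7 and Myl4 their counterparts in the atrium, with Myl4 also made in the embryonic ventricle. Myh7b is an ancient relative of both heavy chains, known in mammalian heart mainly as the host of a microRNA.

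Each of the 3 heavy chain genes holds a microRNA of the same small family, called myomiRs, and their mature sequences are printed because the genes described here carry them. The sequences are those of RefSeq on build GRCm38.p6, from 5′ to 3′, with the seed (bases 2 to 8, which pair with target messages) in capitals. The first and the second share the seed UAAGACG, and the third has UAAGACU.
mmu-miR-208a-3p, inside Myh6, chr14:54949072-54949093, minus strand: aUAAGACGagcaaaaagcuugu
mmu-miR-208b-3p, inside Myh7, chr14:54975710-54975731, minus strand: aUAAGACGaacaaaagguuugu
mmu-miR-499-5p, inside Myh7b, chr2:155622893-155622913, plus strand: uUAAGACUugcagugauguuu
No probe set was named for these microRNAs, so their levels were not analysed here.

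Promoter windows are shown for the heavy chain pair whose levels moved in opposite directions at 24 h, and for the atrial light chain pair that stood out on the same arrays. All 7 genes matched the RefSeq promoter table (GRCm38.p6), with 9 windows among them, each running from 250 bases before to 50 bases after an annotated start. Matches to 6 motifs, searched on both strands, are in capitals. MCAT, the site of the TEAD factors, was searched as CATTCC. The site of the GATA factors was searched as AGATAA, and that of the thyroid hormone receptors, as a single repeat, in the letters AGGTCA. The core promoter motif known as the TATA box was searched with the letters TATAAA, and the MEF2 site and the CArG box of serum response factor are given by name. No match below overlapped another.
Myh6 promoter, chr14:54966558-54966857, minus strand: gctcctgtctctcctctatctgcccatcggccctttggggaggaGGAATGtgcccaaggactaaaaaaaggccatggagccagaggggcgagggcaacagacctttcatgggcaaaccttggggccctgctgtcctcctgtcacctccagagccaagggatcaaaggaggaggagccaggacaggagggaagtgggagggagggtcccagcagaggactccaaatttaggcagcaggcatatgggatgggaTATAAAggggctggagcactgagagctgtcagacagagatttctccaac
Myh7 promoter, chr14:54994577-54994876, minus strand: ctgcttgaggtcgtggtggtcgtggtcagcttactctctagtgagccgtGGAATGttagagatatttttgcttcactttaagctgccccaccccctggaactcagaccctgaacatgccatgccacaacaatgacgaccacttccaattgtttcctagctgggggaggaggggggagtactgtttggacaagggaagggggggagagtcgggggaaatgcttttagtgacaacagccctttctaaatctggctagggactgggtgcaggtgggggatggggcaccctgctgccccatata
Myl4 promoter, chr11:104550413-104550712, plus strand: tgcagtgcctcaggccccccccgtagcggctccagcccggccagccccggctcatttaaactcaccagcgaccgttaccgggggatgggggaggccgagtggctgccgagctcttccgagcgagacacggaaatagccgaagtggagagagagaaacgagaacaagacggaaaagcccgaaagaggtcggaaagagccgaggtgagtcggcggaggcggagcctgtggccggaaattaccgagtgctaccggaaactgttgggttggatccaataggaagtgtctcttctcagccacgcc
Myl7 promoter, chr11:5898733-5899032, minus strand: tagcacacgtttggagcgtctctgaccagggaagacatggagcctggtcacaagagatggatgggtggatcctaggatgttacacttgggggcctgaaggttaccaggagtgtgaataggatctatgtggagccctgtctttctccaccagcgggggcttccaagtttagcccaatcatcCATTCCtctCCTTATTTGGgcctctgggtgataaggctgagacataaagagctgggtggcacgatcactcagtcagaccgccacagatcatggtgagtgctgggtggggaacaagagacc
The Myh6 window held an MCAT match, read on the opposite strand, and a TATA match. The first of 2 Myh7 windows held an MCAT match alone, also read on the opposite strand. The Myl7 window held an MCAT match and a CArG match 3 bases apart, and the Myl4 window held none of the 6 motifs. Of 32851 mouse promoter windows of the same length, 14.66% held MCAT, 13.62% TATA, 11.18% GATA, 16.26% the thyroid hormone receptor repeat, 3.69% MEF2 and 1.63% CArG. A match is a description of these letters only.

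Signals are the authors' deposited values, taken as log2, and a change is a difference of group means on that scale with its standard error. A change was called when limma's moderated test over all 16 arrays gave a p-value under 0.05 after Benjamini-Hochberg adjustment over 19505 genes. The negative controls of the array had a 75th percentile of 6.76, used here as the background level. Levels of different probe sets are not compared. With 4 arrays a group, which sets the precision, the SE of a change had a median of 0.183 over all genes. The labels name separate hearts, and p-values measure the spread between these arrays. The deposited scale reaches 19.82, beyond the log2 range of a scanner, so folds are on the authors' scale and may be stretched.

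The samples were heart muscle by their markers: all 12 general cardiomyocyte markers, Tnnt2, Tnni3 and Ryr2 among them, were above background. Their mean level lay 0.34 to 0.58 below the sham mean on the 24 h arrays and 0.26 to 0.52 below it on the 72 h arrays. The 5 measured leukocyte markers rose together at 24 h, and their mean stood 2.49 to 5.38 above sham on those arrays. In such bulk samples, fewer cells of a type and less RNA per cell cannot be told apart. Of 9 measured skeletal muscle markers only Myl1 was above background by its mean, and the defining Myh4, Tnnt3 and Actn3 averaged below it. The defining atrial markers Sln, Bmp10 and Mybphl were below background on every array except for Sln on replicate 16 of the 24 h group.

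As deposited, the heavy chains moved apart at 24 h of reperfusion and came back by 72 h. At 24 h Myh6 fell by 0.58 and Myh7 rose by 0.81 against sham, on the log2 scale, or 1.50-fold lower and 1.75-fold higher. The dim Myh7b signal fell by 1.06. Between 24 and 72 h each of the 3 turned back, with Myh6 rising by 0.74, Myh7 at -1.24 and Myh7b at 0.70, all called. At 6 h none of the 3 had a called change. The Myh6 fall against sham lost its call under hybridization spike-in and cardiomyocyte marker centring of the arrays, described below. The Myh7 rise against sham lost its call without sham replicate 5, and the Myh7b return on leaving out single arrays.

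Myh6, the alpha heavy chain, read 17.88, 17.79, 17.82 and 17.96 on the sham arrays and 17.73, 18.04, 17.72 and 17.95 on the 6 h arrays. At 24 h it read 17.35, 17.14, 17.08 and 17.54, and at 72 h 18.03, 17.98, 18.07 and 17.98. Every 24 h array lay below every array of the other groups, and the 72 h arrays lay just above the highest sham array. Its log2 change against sham was -0.58 ± 0.13 (SE, n = 4 and 4) at 24 h, with a limma adjusted p of 0.00253. At 72 h the change was 0.15 ± 0.13 with a limma adjusted p of 0.451 and a 95% interval from -0.12 to 0.43, so a rise was not called. From 24 to 72 h it rose by 0.74 ± 0.13 (limma adjusted p = 0.000788). The order of its group means was 72 h, sham, 6 h and 24 h, and only the step from 6 h to 24 h separated neighbours (-0.58 ± 0.13, limma adjusted p = 0.00256). That step depended on the scaling: it was -0.05 (limma adjusted p = 0.809) after hybridization spike-in centring, -0.34 (0.205) after poly-A spike-in centring and -0.27 (0.118) after cardiomyocyte marker centring.

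Myh7, the beta heavy chain, read 14.68, 14.88, 15.19 and 14.18 on the sham arrays and 14.01, 14.01, 14.61 and 15.21 on the 6 h arrays. At 24 h it read 15.27, 15.56, 15.56 and 15.77, and at 72 h 14.24, 14.42, 14.23 and 14.31. The 24 h arrays were the 4 highest of all 16, although the lowest of them exceeded the highest 6 h array by only a small margin. The sham and 6 h groups were the most spread, with SDs of 0.427 and 0.576, against 0.0901 at 72 h. The change at 24 h was 0.81 ± 0.24 (limma adjusted p = 0.0157, 95% interval 0.31 to 1.31). Without sham replicate 5, the lowest sham array, it was 0.62 with a limma adjusted p of 0.0643, so that array decides the call against sham. The rise from 6 h to 24 h (1.08 ± 0.24, limma adjusted p = 0.0019) and the fall from 24 h to 72 h (-1.24 ± 0.24, limma adjusted p = 0.00135) were called under all 27 alternative settings. At 6 h the change from sham was -0.27 ± 0.24 (95% interval -0.77 to 0.23) and at 72 h -0.43 ± 0.24 (-0.93 to 0.07), neither called. The order of means was 24 h, sham, 6 h and 72 h, with sham, 6 h and 72 h not separated by any test.

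Myh7b was at or under the background level on most arrays: 2 of 4 sham arrays, 3 of 4 at 6 h, all 4 at 24 h and 3 of 4 at 72 h lay below it. Its signal was 6.54, 6.97, 6.55 and 6.84 in sham, 6.61, 6.37, 6.85 and 6.58 at 6 h, 5.61, 5.20, 5.71 and 6.14 at 24 h, and 5.97, 6.32, 6.80 and 6.37 at 72 h. The 24 h arrays were the lowest group, with all but replicate 17 under every other array. The log2 change of -1.06 ± 0.20 at 24 h had a limma adjusted p of 0.000469 and was called under all 27 alternatives. Because both groups sit near background, its size has little meaning as a fold. The return from 24 h to 72 h (0.70 ± 0.20, limma adjusted p = 0.0232) was lost when any of 3 arrays was left out: 24 h replicate 14 gave an adjusted p of 0.0540, 24 h replicate 15 gave 0.0982 and 72 h replicate 22 gave 0.0957.

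**Figure D1:**
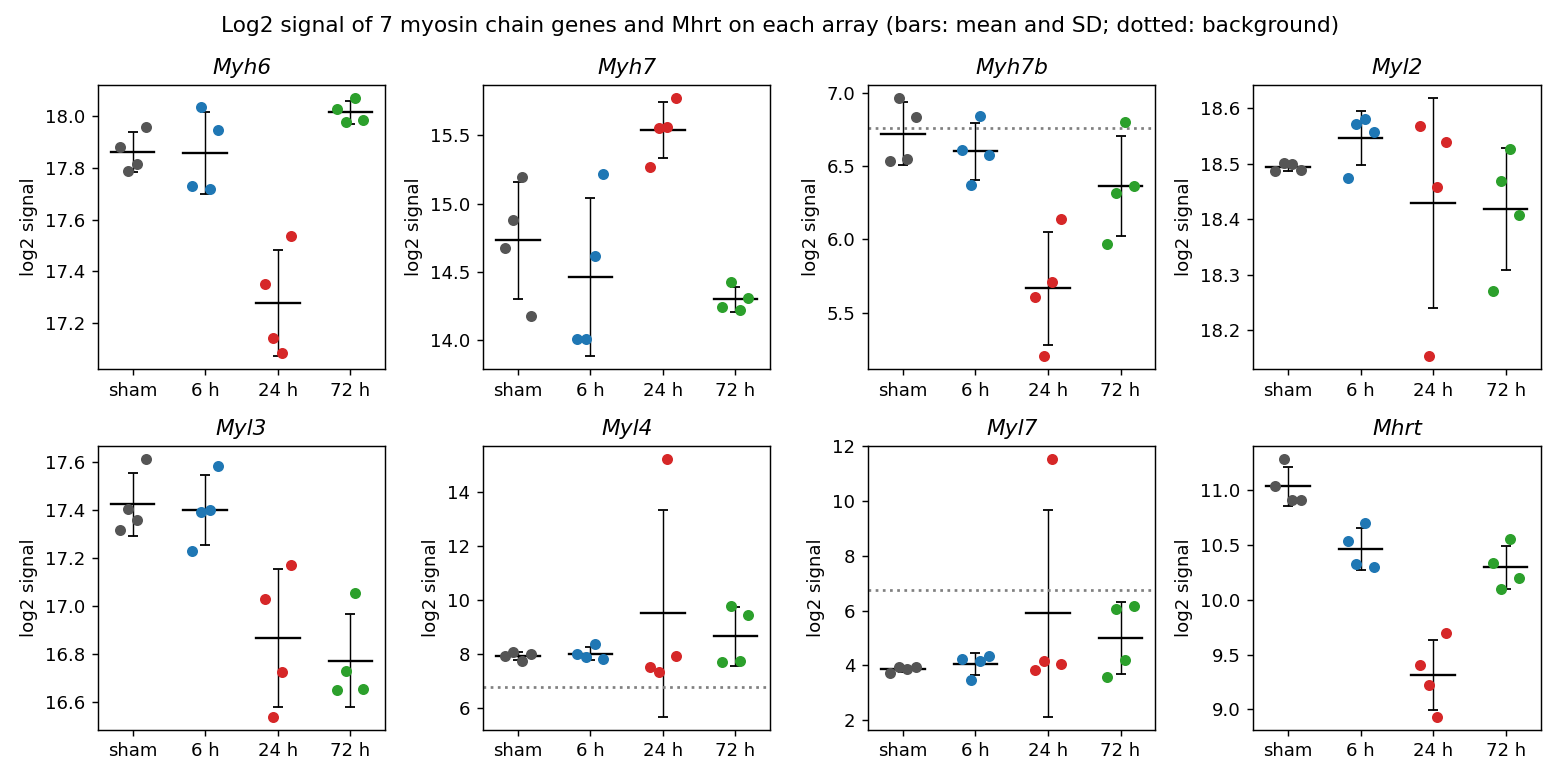
Log2 signal (vertical axis of each panel, on its own range) of the 7 myosin chain genes and of the non-coding RNA Mhrt, by group (horizontal axis), 1 point per array with the mean and SD of 4 arrays, and a dotted line at the background level of 6.76 where it falls in the panel. Myh6 and Myh7b are lowest and Myh7 is highest at 24 h, Myl3 is low at both 24 and 72 h, and Myl4 and Myl7 each have 1 array far above the rest at 24 h.

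The ventricular light chains behaved differently from each other. Myl2, the regulatory chain that kinases phosphorylate, had no called change at any time, while Myl3, the essential chain, fell by 0.56 at 24 h and by 0.65 at 72 h on the log2 scale. Unlike the heavy chains, Myl3 showed no called return between 24 and 72 h. That change was -0.09 ± 0.16, with a limma adjusted p of 0.806 and a 95% interval from -0.42 to 0.23.

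Myl2 read 18.49, 18.50, 18.50 and 18.49 on the sham arrays, an SD of 0.0080, and 18.47, 18.57, 18.58 and 18.56 at 6 h. It read 18.57, 18.15, 18.46 and 18.54 at 24 h and 18.27, 18.47, 18.53 and 18.41 at 72 h. The injured groups overlapped the sham group and were more spread. Its changes against sham were 0.05 ± 0.13, -0.06 ± 0.13 and -0.08 ± 0.13 at 6, 24 and 72 h, with limma adjusted p-values of 0.846, 0.763 and 0.716. The 95% interval at 24 h ran from -0.33 to 0.20. The order of its means was 6 h, sham, 24 h and 72 h, with no neighbours separated.

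Myl3 read 17.32, 17.41, 17.36 and 17.62 in sham and 17.23, 17.39, 17.40 and 17.58 at 6 h. It read 17.03, 16.54, 16.73 and 17.17 at 24 h and 16.65, 16.73, 17.06 and 16.65 at 72 h. Every 24 h and 72 h array lay below every sham and 6 h array. The change was -0.56 ± 0.16 at 24 h (limma adjusted p = 0.0111) and -0.65 ± 0.16 at 72 h (limma adjusted p = 0.00462), or 1.47-fold and 1.57-fold lower. Against 6 h, Myl3 fell by 0.54 at 24 h (limma adjusted p = 0.0138) and by 0.63 at 72 h (limma adjusted p = 0.00419). Without 24 h replicate 15, the lowest array of that group, the 24 h against 6 h change was -0.43 with a limma adjusted p of 0.0589. Its call was also lost under hybridization spike-in (-0.01, limma adjusted p = 0.977), poly-A spike-in (-0.29, 0.326) and cardiomyocyte marker (-0.23, 0.242) centring. The 72 h against 6 h change of Myl3 was 0.09 (0.664) and -0.11 (0.676) under the first and the second of these.

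Counts of called members are given beside the share of all genes called. Against sham, 0 of 7 were called at 6 h (0 at an unadjusted p under 0.05), where 7.92% of all genes were called higher and 12.3% lower. At 24 h 1 of 7 was higher and 3 lower, beside 13.8% of all genes higher and 12.3% lower. At 72 h 0 were higher and 1 lower, beside 11.5% and 10.3%. Between 6 and 24 h 1 member was higher and 3 lower (17.3% and 10.9% of all genes), between 24 and 72 h 2 were higher and 1 lower (6.85% and 6.07%), and between 6 and 72 h 0 were higher and 1 lower (17.5% and 13.1%). In the F test over the 4 groups 4 of 7 members passed, a share near the 44.5% of all genes. Those 4 were Myh6, Myh7, Myh7b and Myl3, and their limma adjusted p-values ran from 0.000647 to 0.0017. The median member change was -0.06 at 24 h and -0.08 at 72 h, close to the medians of all genes, -0.07 and -0.09.

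**Figure D2:**
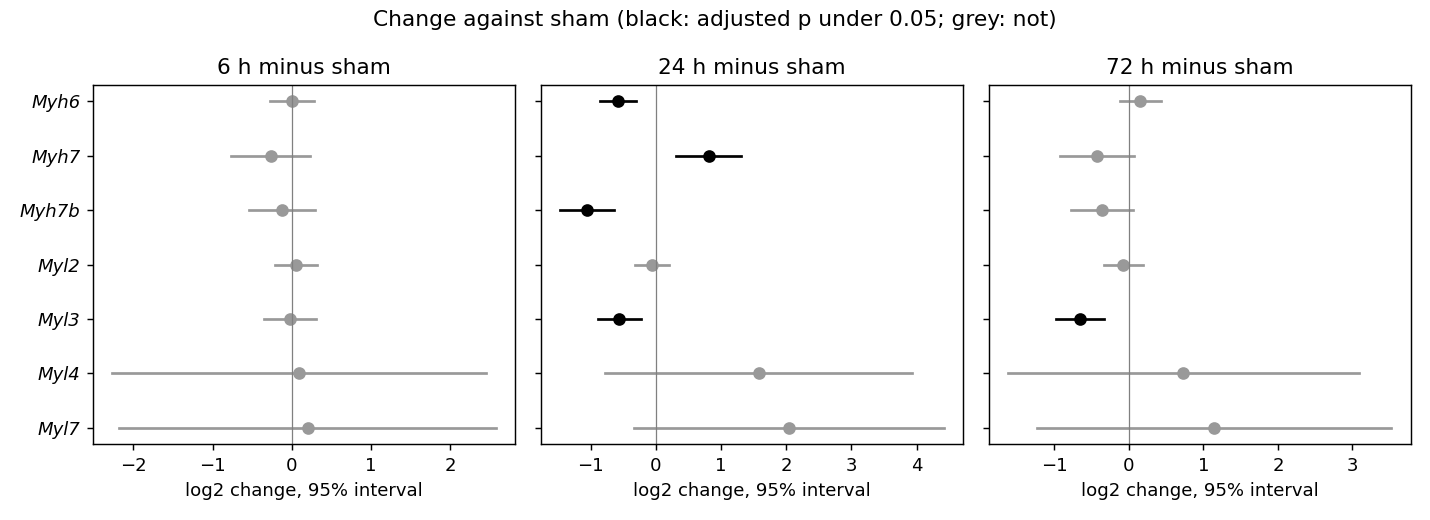
Log2 change against sham with its 95% interval (horizontal axis, on its own range in each panel) for the 7 genes at 6, 24 and 72 h, black where the limma adjusted p is under 0.05. At 24 h Myh6, Myh7b and Myl3 lie below 0 and Myh7 above it, at 72 h only Myl3 is black, and the intervals of Myl4 and Myl7 are the widest.

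The difference between Myh7 and Myh6 within each array cancels any shift that an array's values share. Only its movement between groups is read, since the probe sets have different brightness. Log2 Myh7 minus log2 Myh6 was -3.13 ± 0.50 (SD, n = 4) in sham, with arrays between -3.78 and -2.62, and -3.40 ± 0.58 at 6 h. At 24 h it was -1.74 ± 0.25, between -2.08 and -1.52, and at 72 h -3.72 ± 0.13, between -3.85 and -3.55. The 24 h arrays thus lay above every other array, 1.39 above the sham mean, which is 2.62-fold on the authors' scale. At 72 h the mean was 0.59 below sham, but sham replicate 5, at -3.78, lay inside the 72 h range. These differences combine members and carry no test.

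Among the ventricular chains, log2 Myl3 minus log2 Myl2 was -1.07 ± 0.14 in sham, -1.15 ± 0.12 at 6 h, -1.56 ± 0.15 at 24 h and -1.65 ± 0.13 at 72 h. The lowest sham and 6 h arrays, at -1.17 and -1.25, stayed above the highest 24 h and 72 h arrays, at -1.37 and -1.47. Log2 Myl3 minus log2 Myh6 was -0.44, -0.46 and -0.41 in sham, at 6 h and at 24 h, and -1.25 ± 0.16 at 72 h. Myl3 thus kept its place beside Myh6 through 24 h and fell behind it at 72 h, when Myh6 had returned and Myl3 had not.

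**Figure D3:**
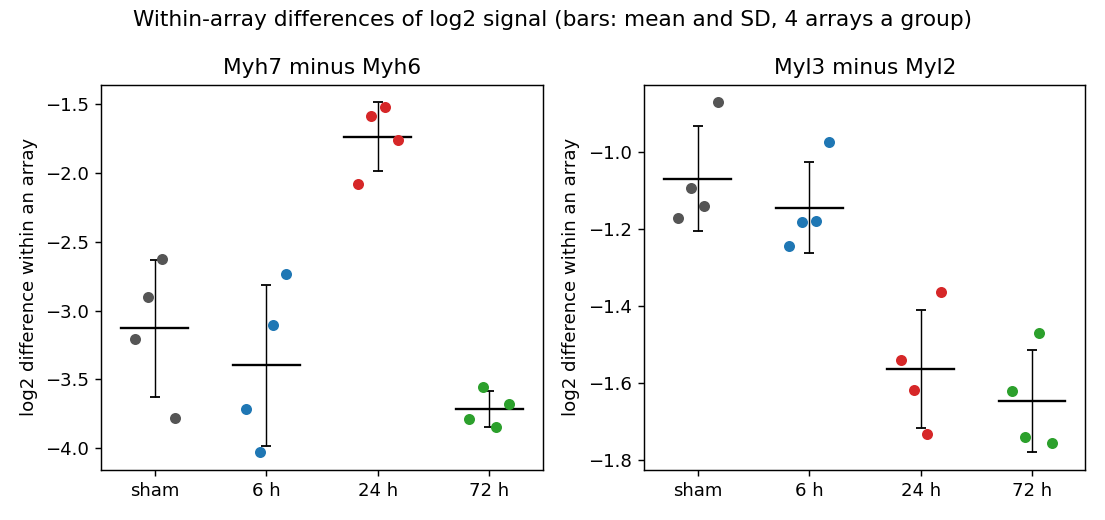
Within-array difference of log2 signal (vertical axis) for Myh7 minus Myh6 and for Myl3 minus Myl2, by group (horizontal axis), 1 point per array with the mean and SD of 4 arrays. The 4 arrays at 24 h stand between -2.08 and -1.52 for Myh7 minus Myh6, above all others, and Myl3 minus Myl2 is lower at 24 and 72 h than in sham.

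The scaling of the arrays bears on these calls, since the choice moves all genes together. The median change of all genes at 24 h was -0.07 as deposited, 0.24 after centring on hybridization spike-ins and 0.36 after centring on the general cardiomyocyte markers. Under those 2 centrings the Myh6 change at 24 h was -0.28 (limma adjusted p = 0.268) and -0.15 (0.355), and the Myl3 change was -0.25 (0.333) and -0.13 (0.484). Centring on cardiomyocyte markers sets the members beside the mean of other heart muscle genes. Those 12 markers did not move alike at 24 h as deposited. Of them, 1 was called higher (Csrp3, 0.75) and 5 lower, with Tcap the furthest (-2.70), beside 13.8% and 12.3% of all genes. Under this centring Myh7 still rose (1.24), Myh7b still fell, and Myl2 rose by 0.37 (limma adjusted p = 0.0241). Myh6 and Myl3 moved with the mean of those markers within their error. At 72 h the Myl3 change lost its call under hybridization spike-in (-0.16), poly-A spike-in (-0.47) and cardiomyocyte marker (-0.29) centring, and Myh6 became a called rise under the first (0.65) and the third (0.52). The called returns of Myh6 and Myh7 between 24 and 72 h were kept under every scaling tried.

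**Figure D4:**
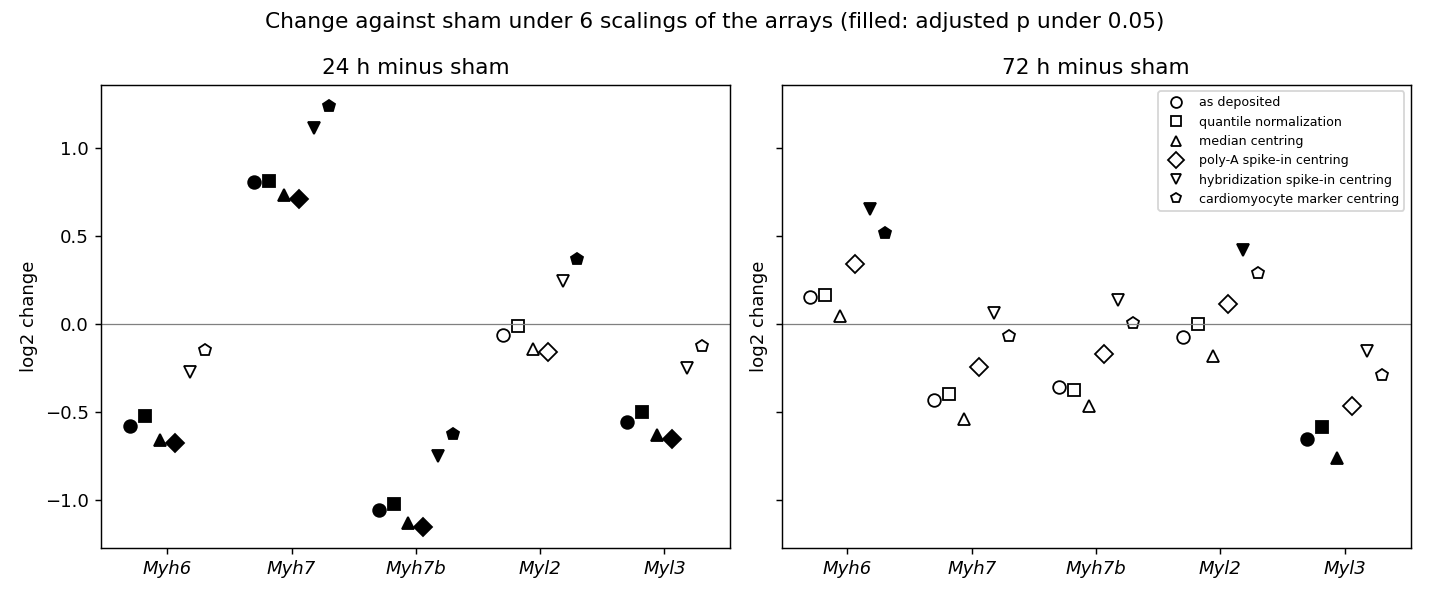
Log2 change against sham (vertical axis) of 5 myosin chain genes (horizontal axis) at 24 and 72 h, with 1 marker shape for each of 6 scalings of the arrays and filled markers where the limma adjusted p is under 0.05. Myh7 and Myh7b are filled under all 6 scalings at 24 h, while Myh6 and Myl3 are open under hybridization spike-in and cardiomyocyte marker centring.

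The atrial light chains were low on most arrays and stood out on 3. Myl4 and Myl7 had no called change in any comparison, but replicate 16 of the 24 h group read 15.22 for Myl4 and 11.54 for Myl7. Replicates 21 and 23 of the 72 h group stood above the rest by a smaller margin, on both genes.

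Myl4, the atrial essential chain, read 7.91, 8.07, 7.73 and 8.00 in sham, 7.99, 7.89, 8.37 and 7.80 at 6 h, 7.52, 7.34, 15.22 and 7.93 at 24 h, and 7.69, 9.76, 7.75 and 9.44 at 72 h. The 13 arrays other than those 3 lay between 7.34 and 8.37. Its change at 24 h was 1.58 ± 1.13 with replicate 16 (limma adjusted p = 0.343) and -0.33 without it (0.605), so that 1 array sets the sign. At 72 h the change was 0.73 ± 1.13 (limma adjusted p = 0.695), and with the 3 arrays left out -0.20 (0.588).

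Myl7, the atrial regulatory chain, read 3.71, 3.93, 3.87 and 3.93 in sham, 4.25, 3.47, 4.17 and 4.33 at 6 h, 3.84, 4.15, 11.54 and 4.05 at 24 h, and 3.58, 6.07, 4.19 and 6.18 at 72 h. Only replicate 16 exceeded the background level. The 13 other arrays lay between 3.47 and 4.33. The change at 24 h was 2.04 ± 1.13 (limma adjusted p = 0.211) and 0.15 without replicate 16 (0.856). At 72 h it was 1.15 ± 1.13 (limma adjusted p = 0.520) and 0.02 without the 3 arrays (0.965).

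Sln, which encodes sarcolipin, a small inhibitor of the calcium pump made mainly in the atrium, read 9.85 on replicate 16 and between 4.70 and 5.89 on the 13 other arrays. On 72 h replicates 21 and 23 it read 5.88 and 5.88, inside that range. Bmp10 and Mybphl, the other defining atrial markers, were below background on replicate 16 as well, at 4.51 and 3.69. Each was still at its highest of the 16 arrays there. The next highest were 4.18 for Bmp10, on sham replicate 3, and 3.27 for Mybphl, on 6 h replicate 10. Over the 9 measured atrial markers, 4 were above background on 15 of the arrays and 5 on replicate 16. Their mean minus the sham mean ran from -0.13 to 0.13 in sham, -0.40 to -0.28 at 6 h, -0.21 to 0.59 at 24 h with replicate 16 highest, and 0.19 to 0.30 at 72 h. Replicates 21 and 23 were at 0.22 and 0.19, no higher than replicate 20 at 0.30. Nppa, the atrial natriuretic peptide gene and a member of that list, rose by 2.26 at 24 h over all 4 arrays, so it does not set replicate 16 apart. The part of atrial tissue in the Myl4 and Myl7 values was not tested.

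**Figure D5:**
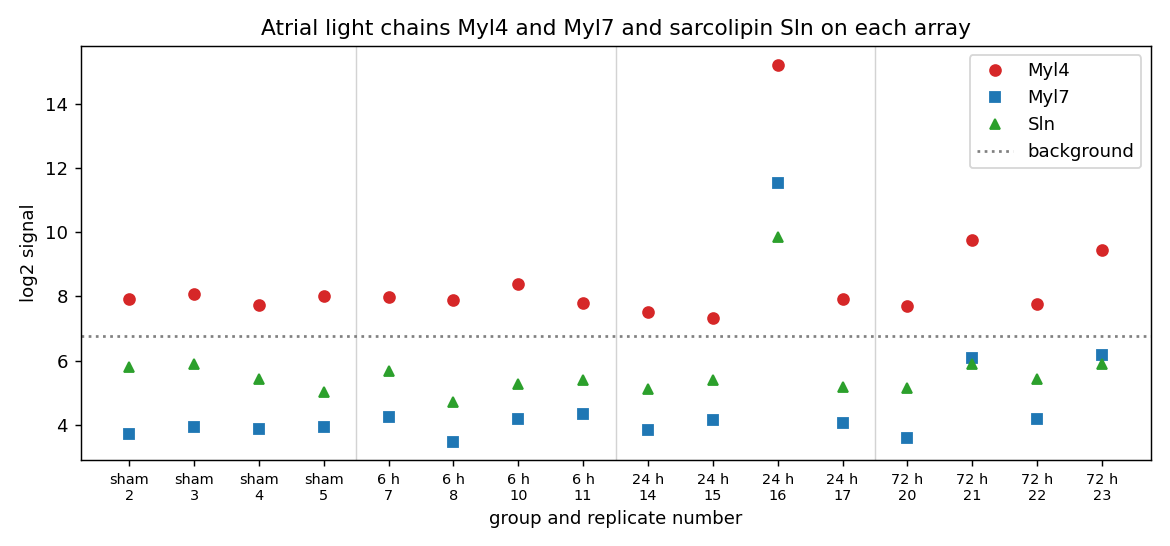
Log2 signal (vertical axis) of Myl4, Myl7 and Sln on each of the 16 arrays, by group and replicate number (horizontal axis), with the background level of 6.76 as a dotted line. All 3 genes are highest on 24 h replicate 16, at 15.22, 11.54 and 9.85, and Myl4 and Myl7 are next highest on 72 h replicates 21 and 23.

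Leaving out these 3 arrays together left Myh7 at 24 h at 0.80 (limma adjusted p = 0.0530), Myl3 at 24 h at -0.51 (0.0534) and Myl3 at 72 h at -0.57 (0.0819). The sizes were close to those over all arrays and the calls were lost with fewer arrays in the fit. Myh6 and Myh7b at 24 h kept their calls.

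The myosin gene locus on chromosome 14 also yields Mhrt, a cardiac non-coding RNA made antisense to Myh7 and known as a partner of the chromatin remodeller Brg1. It read 11.04, 11.29, 10.91 and 10.91 in sham, 10.54, 10.32, 10.70 and 10.30 at 6 h, 9.41, 9.22, 8.93 and 9.70 at 24 h, and 10.33, 10.10, 10.55 and 10.20 at 72 h. No array of any reperfused group reached the sham range, and the 24 h arrays were lowest. Mhrt fell by 0.57 ± 0.17 at 6 h (limma adjusted p = 0.0199), before any called change of a member, by 1.72 ± 0.17 at 24 h (5.25e-07) and by 0.74 ± 0.17 at 72 h (0.00329). The 24 h call was kept under each of 5 other scalings, and the 6 h and 72 h calls under 3 and 2 of 5. Leaving out sham replicate 3, 6 h replicate 8 or 6 h replicate 11 also ended the 6 h call. Log2 Mhrt minus log2 Myh6 was -6.83, -7.40, -7.96 and -7.72 in sham and at 6, 24 and 72 h, so Mhrt fell further than Myh6. It is not stated in the sources used here whether the Mhrt and Myh7 probe sets tell the strands apart.

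The other genes of the myosin pathway are given from lists chosen by name. Counts in each list below stand beside 7.92% of all genes called higher and 12.3% lower at 6 h. Those shares were 13.8% and 12.3% at 24 h, and 11.5% and 10.3% at 72 h. Of 11 other heavy chains, 1 was higher and 1 lower at 6 h, 2 and 3 at 24 h, and 2 and 2 at 72 h. Myh9, the non-muscle heavy chain of many migrating cells, rose by 1.39, 2.09 and 1.69 at 6, 24 and 72 h. Myh11, the smooth muscle heavy chain, fell by 0.73 at 6 h and by 1.00 at 24 h. Myh14, another non-muscle heavy chain, went the other way from Myh9 and fell by 1.22 at 24 h. Its means in sham and at 24 h, 6.67 and 5.46, were below the background level. These Myh9, Myh11 and Myh14 calls were kept under 5 of 5 other scalings. Of 7 other light chains, Myl6, the essential chain of smooth and non-muscle myosin, rose by 1.60 at 24 h and 1.27 at 72 h, and no other was called. The leukocyte markers given above moved with these rises. The mean of the 3 measured fibroblast markers stood 2.35 to 2.80 above sham on the 72 h arrays, with all 3 called higher, Col1a1 by 5.78. The part of either cell type in these rises was not tested.

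Of 10 kinases and phosphatase subunits that act on the light chains, 2 were higher and 4 lower at 6 h, 1 and 2 at 24 h, and 0 and 2 at 72 h. Mylk3, the cardiac myosin light chain kinase that phosphorylates Myl2 protein, fell by 1.02 ± 0.17 at 6 h, 1.17 ± 0.17 at 24 h and 0.61 ± 0.17 at 72 h, with limma adjusted p-values of 0.000181, 3.51e-05 and 0.0127. The 72 h call was lost without 72 h replicate 23 and under 3 of 5 other scalings. Ppp1r12b, a targeting subunit of the myosin phosphatase, fell by 1.04 at 24 h and 0.91 at 72 h, the latter kept under 3 of 5 scalings. Dapk3, a kinase that can phosphorylate light chains, rose by 0.76 at 24 h. Ppp1r12a, another subunit of the phosphatase, rose by 0.76 at 6 h, a call kept under 4 of 5 scalings. The Myl2 signal itself had no called change, and phosphorylation of Myl2 protein was not measured here.

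Of 11 thick filament and myosin-binding genes none was called at 6 h, 1 was higher and 3 lower at 24 h, and 0 and 2 at 72 h. Mybpc3, cardiac myosin-binding protein C, fell by 1.03 ± 0.20 at 24 h (limma adjusted p = 0.000561), and the muscle protein gene Smpx rose by 0.81. The other 2 lower genes at 24 h, the M-band genes Myom1 (-0.41) and Myom2 (-0.66), each lost their call on leaving out any of 5 single arrays. Myom1 fell by 0.48 at 72 h, but its sign turned under cardiomyocyte marker centring at 24 h (0.02) and under hybridization spike-in centring at 72 h (0.02). Ttn, the gene of the giant spring protein titin, fell by 0.50 at 72 h, a call lost under 3 of 5 scalings and without 72 h replicate 23.

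Of 9 genes for myosin folding and turnover, 2 were higher and 1 lower at 6 h, 1 and 1 at 24 h, and 0 and 3 at 72 h. Hsp90aa1, the inducible chaperone that helps fold the myosin head, rose by 1.92 at 6 h and 2.00 at 24 h, and Fbxo32, the ubiquitin ligase atrogin-1, fell by 1.90 and 1.34. At 72 h the 3 lower genes were Trim55 (-1.32), a muscle ring-finger ligase, Smyd1 (-0.98), a muscle lysine methyltransferase, and Unc45b (-0.74), the muscle myosin chaperone. The Unc45b call was lost under 3 of 5 scalings.

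Of 11 thin filament genes, 1 was higher and 1 lower at 6 h, 3 and 2 at 24 h, and 2 and 2 at 72 h. Acta1, the skeletal actin gene of the fetal heart, rose by 1.56 ± 0.32 at 24 h (limma adjusted p = 0.00115), at the time Myh7 was highest. Tpm3, a tropomyosin gene, rose by 1.47, 1.56 and 1.33. Actc1, the adult cardiac actin gene, fell by 0.43 at 72 h as deposited, with the sign turned under hybridization spike-in centring (0.06) and the call lost without 72 h replicate 21.

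Of 22 regulators of myosin genes, 0 were higher and 9 lower at 6 h, 1 and 7 at 24 h, and 0 and 8 at 72 h, beside the shares of all genes given above. Irx4, a ventricular homeobox repressor, fell by 2.51 ± 0.28 at 6 h (limma adjusted p = 2.21e-06) and 1.15 at 24 h. It lay below the background level on 3 of 4 arrays at 6 h and 1 of 4 at 24 h, which limits what the size of its fall means. Gata4, Hey2 and Mef2c, transcription factors of heart muscle, fell by 1.29, 1.12 and 1.02 at 6 h. Tbx5 fell by 1.89 at 24 h and 1.38 at 72 h, and Sox6, a repressor of slow muscle genes, by 1.02 at 24 h. Rxra, a partner of the thyroid hormone receptors, fell by 0.76 at 24 h. Myocd, the coactivator of serum response factor, fell by 1.61 at 72 h, and Tead1, which binds MCAT sites, by 0.90. Of these calls, Rxra at 24 h and Tead1 at 72 h were lost under 2 and 1 of 5 other scalings, and the rest were kept under all 5. The median change of this list was -0.33, -0.33 and -0.39 at the 3 times as deposited. With cardiomyocyte marker centring the median was 0.10 at 24 h, where 8 were higher and 3 lower, and with hybridization spike-in centring 0.11 at 72 h, so the direction of the list as a whole depends on the scaling at those times. Irx4 and Hey2 are also the defining markers of the ventricular list, whose 5 genes had a mean 0.60 to 1.10 below sham on the 6 h arrays, 0.58 to 1.56 below on the 24 h arrays and 0.59 to 0.83 below on the 72 h arrays, and the part of that cell type was not tested. The 6 h median was below 0 under all 5 other scalings.

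The genes most like each member over the 16 arrays are given by Pearson's r as a description, since the arrays share the groups. For Myh6 they were Rgs7 (r = 0.945), Kcnd2 (0.931), Lrtm1, Dgat2 and Ccpg1. For Myh7 the closest was Zbed4 (0.889), followed by Zfp54 and Cnot1. For Myh7b they included Gm6498 (0.929), Pfkm (0.922) and the potassium channel partner gene Kcnip2 (0.920). Myl3 was closest to Acaa2 (0.940), Atp5g3, Mgst3 and Hsd17b10. For Myl2 the highest was Ovol3 (0.885), and since Myl2 varied little its correlations rest on small differences.

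Among the members, Myh6 and Myh7 had r = -0.759 over 16 arrays but -0.065 once group means were removed, so their opposition lay between groups and not among hearts of 1 group. Myl2 and Myl3 had r = 0.711, and 0.758 within groups. Myl4 was closest to Myl7 (r = 0.984) and Sln (0.952). Without 24 h replicate 16 the correlation of Myl4 with Myl7 was 0.894 over 15 arrays and with Sln 0.530, and without the 3 arrays that of Myl4 with Myl7 was 0.106 over 13.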

How the data were processed

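Per the labels, RNA from 16 hearts was hybridised to 1 array each, with 4 arrays in each of 4 groups. The authors deposited 1 table of log2 values for 28846 probe sets, made with Affymetrix Expression Console per the submitters' processing notes. The sources used here give no version, summarization method or log base, and base 2 was assumed. The design text names another array than the identifiers do, and the title other hours than the labels. Identifiers and labels were followed. Array medians lay between 5.84 and 5.95, and values were used as deposited, with no filter.

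Names came from the platform annotation, by which 19572 probe sets had 1 symbol, 0 several and 9274 none. For the 55 genes with more than 1 probe set the one with the highest mean was kept. Group means were fitted with lmFit and eBayes in limma 3.58.1 (R 4.3.3) for 6 comparisons and an F test, with 12 residual degrees of freedom, after the fit was tested on simulated data. Adjustment was by Benjamini-Hochberg. Tables and plots used pandas 2.3.3 and matplotlib 3.10.9.

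The 7 members are always named. Of each pathway list, up to 4 genes with the largest called changes in each comparison with sham may be named, and for each member the 5 genes with the highest correlation. The members, lists, markers and motifs were chosen with earlier results of these data known. Alternatives were quantile normalization, centring on array medians, spike-ins or cardiomyocyte markers, means of probe sets, a filter at the median, other eBayes settings, array weights, 2 groups only, and leaving out each array or the 3 arrays with atrial chains. Listed genes with no named probe set were not analysed here.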

Additional observations from a re-analysis of the deposited data

Results flagged for a closer look

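Replicate 16 of the 24 h group stood apart from the other 3 arrays of its group, by Dixon's criterion for 4 samples, in both atrial light chains. Myl4 read 15.22 and Myl7 11.54 there. The within-array differences were far from the others too, at -1.50 for log2 Myl4 minus log2 Myl3 and -6.91 for log2 Myl7 minus log2 Myl2. In all, 4 of 40 groups of values examined met the criterion, where chance gives about 1 in 20 for values not chosen beforehand. These 4 share 1 array and overlap in content. The members were chosen with earlier results of these data known, so the count is a description and no test against chance.

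Changes of 4 genes differed between times of reperfusion by the test of the difference itself (limma, adjusted over all genes). Myh6 differed by -0.58 between 6 and 24 h and by 0.74 between 24 and 72 h. For Myh7 the differences were 1.08 and -1.24, and for the dim Myh7b -0.94 and 0.70. Myl3 differed by -0.54 between 6 and 24 h and by -0.63 between 6 and 72 h. The differences between 6 and 24 h depended on the scaling: with hybridization spike-in centring they were -0.05 for Myh6 (limma adjusted p = 0.809), -0.41 for Myh7b (0.104) and -0.01 for Myl3 (0.977), and those of Myh6 and Myl3 were also lost with poly-A spike-in and cardiomyocyte marker centring. The Myl3 difference between 6 and 72 h was lost with both spike-in centrings. The Myh7 differences and that of Myh6 between 24 and 72 h were called under every scaling tried.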

How the results depend on the processing

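Over the 7 members, their changes and the alternatives, 1063 results kept their direction and side of the threshold or moved by less than the replicate spread, 27 lost a call, 6 gained one, 26 moved and 6 reversed. A reversal was counted only where a value was called. Uncalled changes that turned their sign were counted among the 1063 or the 26. Myl4 at 24 h, 1.58 with replicate 16 and -0.33 without it, is such a case. Among counts of called members, centring on hybridization spike-ins gave 2 at 24 h and 2 at 72 h against sham, 2 for 24 h against 6 h and 3 for 72 h against 6 h. Poly-A spike-in centring gave 1 at 6 h (Myh7, -0.61, limma adjusted p = 0.0442), 0 at 72 h and 2 for 24 h against 6 h. All genes called under it were 864 higher and 6087 lower at 6 h, and 2752 and 590 at 72 h. For 24 h against 6 h they were 4882 and 831. Cardiomyocyte marker centring gave 2 for 24 h against 6 h and 2 for 72 h against 6 h. Against sham it gave 2 higher and 1 lower at 24 h, where 1 and 3 were called as deposited. At 72 h it gave 1 higher, Myh6 (0.52), and 0 lower. Of all genes, it called 7630 higher and 781 lower at 24 h and 5271 and 489 at 72 h against sham. It called 6349 and 861 for 24 h against 6 h, and 5237 and 1138 for 72 h against 6 h. Without the 3 arrays with atrial chains the counts were 2 at 24 h, 0 at 72 h and 0 for 72 h against 6 h, with fewer arrays in the fit. Among the members and the pathway lists, reversed values under hybridization spike-in centring were 0.42 for Myl2 and 0.06 for Actc1 and 0.02 for Myom1 at 72 h against sham, 0.41 for Myl2 at 24 h against 6 h, and 0.59 for Myl2, 0.48 for Myh7b and 0.09 for Myl3 at 72 h against 6 h. Under cardiomyocyte marker centring they were 0.37 for Myl2, 0.06 for Mef2a and 0.02 for Myom1 at 24 h. Called cardiomyocyte markers outside those lists also turned: Atp2a2 (0.01) and Pln (0.05) at 24 h under cardiomyocyte marker centring, and Ryr2 (0.07) and Csrp3 (0.03) at 72 h under hybridization spike-in centring. These centrings move all genes together by construction, and which scaling is right was not tested. Myl7 could not be fitted under the filter at the median, which removed it. No paired analysis was possible because the groups share no replicate number. Signals near background limit what can be said of Myh7b and Myl7.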

Other observations

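Myl1, which encodes the essential light chain of fast skeletal muscle, read between 12.81 and 15.55 on all 16 arrays, while the other 8 measured skeletal muscle markers averaged below background. It had no called change against sham: 0.43 ± 0.42 (SE) at 6 h, 0.12 ± 0.42 at 24 h and 0.17 ± 0.42 at 72 h, with limma adjusted p-values of 0.566, 0.879 and 0.814. Its lowest array was 24 h replicate 15 and its highest 72 h replicate 20.

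Kcnj3, an atrial potassium channel gene of the atrial marker list, was above background on every array and fell at each time, by 1.67 at 6 h, 1.91 at 24 h and 1.25 at 72 h. On 24 h replicate 16 it read 10.15, the lowest of all 16 arrays, where Myl4, Myl7 and Sln were highest. On 24 h replicate 15, where those genes were not raised, Kcnj3 read nearly the same, 10.17. The mean of the ventricular markers was also lowest on replicate 16, at -1.56 against the sham mean.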
